A study of Mus musculus with 6 samples.

Results

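The genes followed here are 5 lipid transport genes of the brain, namely the lipid-carrying proteins Apoe, Apod and Clu and the membrane transporters Abca1 and Abcg1. They were taken by symbol from the 32285 genes of the matrices, and all 5 were found. The material was 6 coronal sections through the brains of males of the inbred strain C57BL/6J, measured with Visium spatial RNA sequencing. This assay lays a frozen section, here 16 µm thick, over barcoded capture spots and counts unique molecular identifiers (UMIs), 1 per captured transcript, in each spot. The groups were young (6 months), middle (18 months) and old (21 months), with 2 sections each, and the labels name no transgene or treatment. The labels give 2 males per age but do not tie sections to animals, so p-values measure the spread between sections. Slide 1 held young 1, young 2, middle 1 and old 1, and slide 2 held middle 2 and old 2, so that age and slide are partly confounded.

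Neurons of the adult brain depend on cholesterol and phospholipids handed over by glia. Abca1 and Abcg1 move cholesterol and phospholipids out of the cell onto acceptor particles. Apolipoprotein E (Apoe), made mainly by astrocytes and also by microglia, and clusterin (Clu), an apolipoprotein and chaperone of astrocytes and epithelia, form such particles, while apolipoprotein D (Apod), a lipocalin that binds small lipids, is abundant in oligodendrocytes. Apoe, Abca1 and Abcg1 are textbook targets of the liver X receptors (LXR), nuclear receptors that sense oxidised sterols. Myelin is the largest store of cholesterol in the brain, and its breakdown hands lipid to microglia.

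In GENCODE M21 (GRCm38, the build named mm10 by the submitters' processing notes), Apoe lies at chr7:19696109-19699188 on the minus strand, Apod at chr16:31296192-31314808 on the minus strand, Clu at chr14:65968483-65981547 on the plus strand, Abca1 at chr4:53030787-53159895 on the minus strand and Abcg1 at chr17:31057675-31117988 on the plus strand. No other gene with counts in the matrices overlaps any of them. RefSeq's promoter table (GRCm38.p6), which covers 250 bases before to 50 after a start site, matched 3 of the 5 genes (Abca1, Apoe and Apod). The Abca1 promoter (chr4:53159846-53160145, minus strand) and that of the most upstream Apoe start in the table (chr7:19699139-19699438, minus strand) are printed because both genes are LXR targets and because Apoe carries the main age result below. Capitals mark an LXR-type repeat (letters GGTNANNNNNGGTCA, searched on both strands, found as its reverse complement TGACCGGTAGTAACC, first base at position -67 from the start site) and an E-box (CACGTG, first base at -147), which do not overlap each other.
Abca1: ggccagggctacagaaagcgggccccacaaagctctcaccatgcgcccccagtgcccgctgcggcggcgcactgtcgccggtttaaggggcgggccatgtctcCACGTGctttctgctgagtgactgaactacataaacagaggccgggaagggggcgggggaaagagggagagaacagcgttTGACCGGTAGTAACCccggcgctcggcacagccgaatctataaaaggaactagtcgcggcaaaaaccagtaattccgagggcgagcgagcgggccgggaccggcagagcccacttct
Apoe: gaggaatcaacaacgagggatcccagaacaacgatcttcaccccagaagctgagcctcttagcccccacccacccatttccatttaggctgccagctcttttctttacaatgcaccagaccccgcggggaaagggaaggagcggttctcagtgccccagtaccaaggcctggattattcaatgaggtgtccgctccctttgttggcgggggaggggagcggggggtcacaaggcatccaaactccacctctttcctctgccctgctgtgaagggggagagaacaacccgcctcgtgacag
The repeat was found in 68 of 32544 promoters of the same length (0.209%) and the E-box in 2332 (7.17%). Neither string occurred in the printed Apoe window, which says only that these letters are not in those 300 bases.

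After removal of 2 spots with fewer than 500 UMIs, 16741 spots remained, 2573 to 2973 per section, with 60938938 to 77557934 UMIs per section. The old sections were shallower, with median UMIs per spot of 21766 and 20370 against 25904 to 30093 in the other sections. Spots were clustered without the 5 genes, their pathway genes or the microglia and reactive astrocyte markers, and 14 of 20 clusters took the name of 1 of 9 regions from fixed markers, while 6 clusters (3143 spots) stayed unnamed and enter only the whole-section sums and the comparison of white matter with the remaining spots. White matter comprised 1710 spots (249 to 319 per section), with Mal, Trf, Cldn11 and Mog among the leading genes. Choroid plexus and ventricle lining fell into 1 cluster of 272 spots, and the hippocampal formation had only 45 spots in young 1 against 166 to 274 elsewhere. A spot can hold several cell types, and fewer cells of a type and less RNA per cell cannot be told apart in any of these results.

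The 5 genes had different territories. Levels are UMIs of the gene per 1000000 UMIs of the region (CPM), as mean ± SD over the 6 sections, and are compared between regions, not between genes. Apoe was highest in the choroid plexus and ventricle cluster (4342 ± 395 CPM) and in white matter (4330 ± 1150 CPM), whose ranges overlapped (4 of 6 sections higher in the former, exact sign-flip test, adjusted p = 0.822). The young and middle sections were higher in the former, and both old sections in white matter (5289 against 4194 CPM in old 1, 6126 against 4906 CPM in old 2), and white matter ranked first at both other cluster resolutions and with TMM factors. Below these came the meninges (3036 ± 286 CPM). Next in order came hypothalamus (2265 ± 91.9 CPM), thalamus (1890 ± 164 CPM), hippocampal formation (1804 ± 188 CPM), striatum (1744 ± 190 CPM), amygdala and olfactory cortex (1141 ± 54.7 CPM) and isocortex (1049 ± 72.7 CPM). Hypothalamus and thalamus did not overlap over the sections, nor did striatum and amygdala, whereas thalamus, hippocampal formation and striatum overlapped.

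Apod was a white matter transcript, at 3062 ± 384 CPM there against 899 ± 389 CPM in the choroid plexus and ventricle cluster, with no overlap and a difference of 1.86 ± 0.49 on the log2 scale (SD, n = 6 sections). Its lowest levels were in isocortex (140 ± 22.4 CPM) and in amygdala and olfactory cortex (104 ± 18.7 CPM). In the choroid plexus and ventricle cluster Apod varied most between sections, from 563 CPM to 1524 CPM in old 2, while the summed oligodendrocyte markers there ran from 9020 CPM (old 1) to 22155 CPM (middle 1) and stood at 12512 CPM in old 2.

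Clu showed the reverse order at the top. It was at 3125 ± 182 CPM in the choroid plexus and ventricle cluster, above white matter (2117 ± 335 CPM) in 6 of 6 sections without overlap, and white matter was above the meninges (1352 ± 79.5 CPM) in the same way. Thalamus (751 ± 62.6 CPM), amygdala and olfactory cortex (737 ± 28.9 CPM) and isocortex (661 ± 33.2 CPM) had the lowest Clu levels.

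The transporters were scarce. Abca1 stood at 59.4 ± 8.45 CPM in the choroid plexus and ventricle cluster and 46.2 ± 9.05 CPM in white matter, which overlapped, and white matter was above the next region, thalamus (24.5 ± 1.56 CPM), in 6 of 6 sections without overlap. Abca1 was lowest in isocortex (11.8 ± 0.51 CPM) and in amygdala and olfactory cortex (11.9 ± 1.17 CPM). These were not apart, with the latter higher in 2 of 6 sections. Abcg1 peaked in white matter (117 ± 12.7 CPM), 0.96 ± 0.21 on the log2 scale above striatum (59.2 ± 5.06 CPM) and without overlap, and was lowest in the meninges (34.9 ± 2.82 CPM). Of 40 neighbouring pairs in the 5 orders, 17 had the same direction in all 6 sections and 10 had ranges that did not overlap, but none reached an adjusted p under 0.05, since 6 sections allow no p below 0.03125 and the smallest adjusted value was 0.0735 (exact two-sided sign-flip test on log2(CPM + 1), Benjamini-Hochberg over the 40 pairs).

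**Figure D1:**
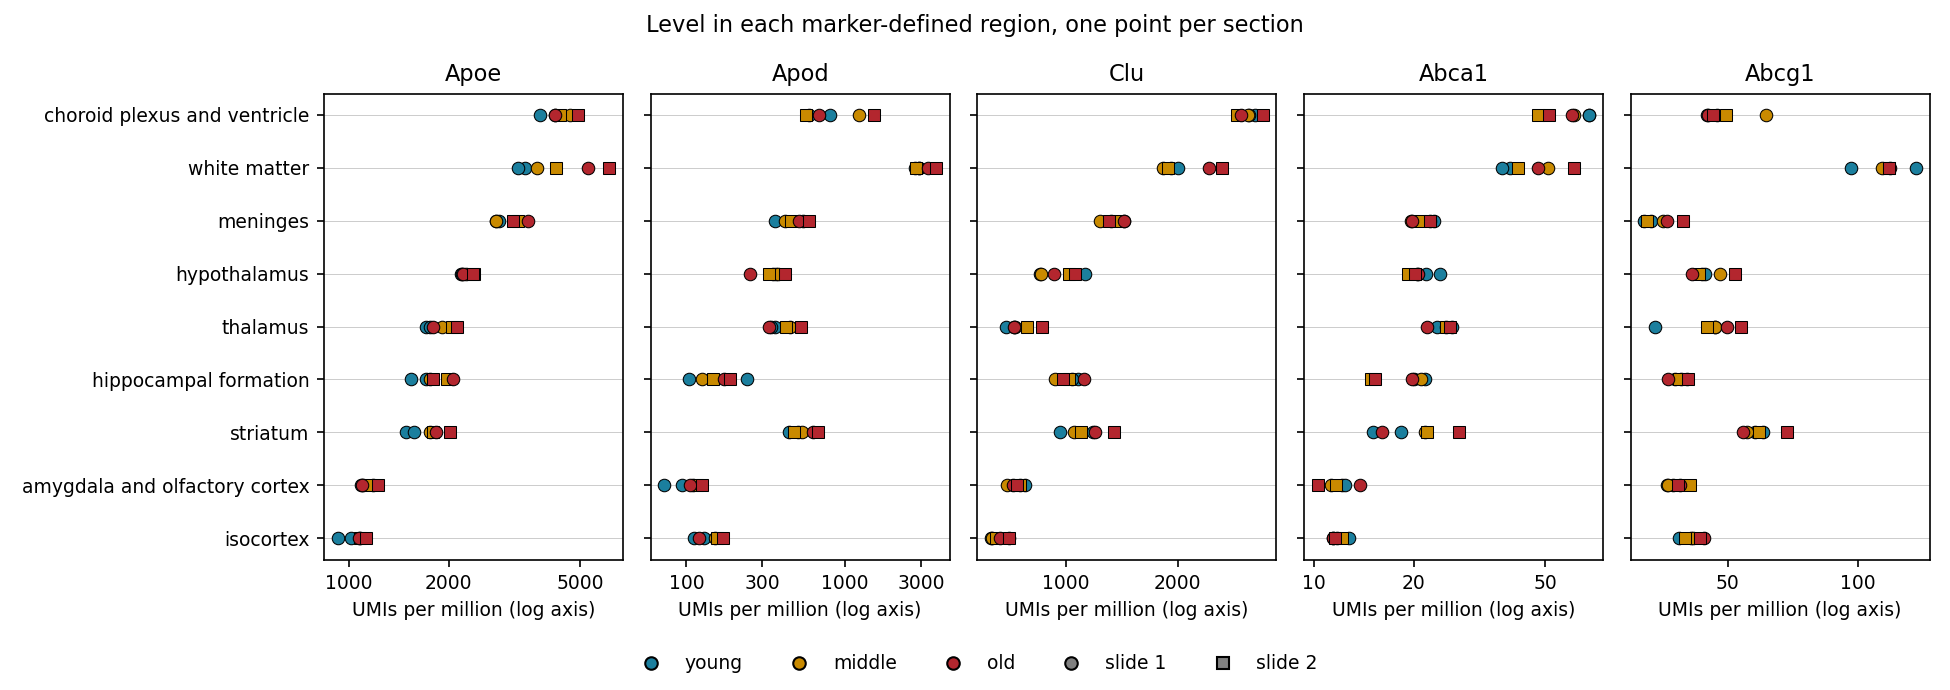
Level of each gene (CPM, log axis) in the 9 marker-defined regions, 1 point per section, coloured by age and shaped by slide. White matter and the choroid plexus and ventricle cluster lie to the right for Apoe, Clu and Abca1, white matter alone for Apod and Abcg1.

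White matter held 4.39% to 6.03% of a section's UMIs and a larger part of each gene's. Its part of the Apod UMIs was 32.9% to 40.6% in the 6 sections. For Apoe it was 10.4% and 8.94% at 6 months, 10.9% and 10.6% at 18 months, and 13.5% and 18.1% at 21 months, so that both old sections were the highest. The old 2 section also had the largest part of all UMIs in white matter (6.03%). For Clu the part was 9.26% to 15.1%, for Abca1 8.71% to 17.8% and for Abcg1 10.6% to 13.8%.

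Whole sections were compared first, to ask whether the 5 genes differed with age in the section as a unit. Apoe stood at 1541 and 1590 CPM in young, 1712 and 1857 CPM in middle and 1859 and 2047 CPM in old sections. Both old sections were above both young ones, and the log2 fold change of old against young was 0.27 (SE 0.067), with an adjusted p of 0.213 in edgeR's quasi-likelihood test. Apod was at 384 and 322 CPM in young, 410 and 395 CPM in middle, and 395 and 555 CPM in old sections, so that old 2 stood apart and old 1 lay among the middle sections (log2 fold change 0.37, SE 0.19, adjusted p = 0.473). Both old sections were above both young ones as printed, but not after TMM scaling (398 CPM in young 1 and 387 CPM in old 1). Clu was at 898 and 949 CPM in young, 880 and 942 CPM in middle, and 982 and 1051 CPM in old sections (log2 fold change 0.09, SE 0.059, adjusted p = 0.569). Abca1 (18.6 to 20.7 CPM) overlapped between young and old sections, with a log2 fold change of -0.02 (SE 0.078, adjusted p = 0.962). Abcg1 was at 43.0 and 47.3 CPM in young, 47.6 and 47.3 CPM in middle and 47.6 and 51.4 CPM in old sections. The old sections were just above the young ones on this scale and overlapped them after TMM scaling (log2 fold change 0.08, SE 0.06, adjusted p = 0.594).

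Of the 5 genes, none was called in whole sections between old and young by edgeR at an adjusted p under 0.05, against 0.164% of all genes tested; 1 (Apoe) had an unadjusted p under 0.05, as did 12.7% of all genes, and DESeq2 called 1, again Apoe, among 194 of 17673 genes. Between middle and young none was called (background 0.0679%), and none by DESeq2. An unadjusted p under 0.05 was found for 1 (Apoe), and for 1382 of all genes. Between old and middle edgeR called none of the 5 and none of 17673 genes (0%), with 0 of the 5 and 361 of all genes at an unadjusted p under 0.05, and DESeq2 called 0. For a linear trend over the 3 ages none of the 5 was called by edgeR (background 0.724%). An unadjusted p under 0.05 was found for 1 of the 5 and for 2858 of all genes. DESeq2 called 1 of the 5, among 341 genes.

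In white matter, Apoe rose with age. It was at 3395 and 3240 CPM in young, 3701 and 4228 CPM in middle and 5289 and 6126 CPM in old sections. Both old sections were above all others, and both middle sections were above both young ones. The TMM-scaled mean was 5623 ± 575 CPM in old and 3409 ± 190 CPM in young (SD, n = 2), 1.65-fold higher, with a log2 fold change of 0.72 (SE 0.11) and an adjusted p of 0.000412 in edgeR. Apoe was the 1 gene of the 5 called between old and young in white matter, where 2.21% of 12739 genes were called. Leaving out old 2 ended the call, with a log2 fold change of 0.61 and an adjusted p of 0.0515. Within slide 1, old 1 was above the mean of the young sections by 0.61 and above middle 1 by 0.47 on the log2 scale, and within slide 2 old 2 was above middle 2 by 0.54, so that old was above middle on both slides, while old against young could be compared within slide 1 only.

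Between middle and young, the log2 fold change of Apoe in white matter was 0.21 (SE 0.11, edgeR adjusted p = 0.397). None of the 5 genes was called by edgeR against 2.94% of all genes, and none by DESeq2. None had an unadjusted p under 0.05, against 1889 of all 12739 genes. Between old and middle the log2 fold change of Apoe was 0.51 (SE 0.11, edgeR adjusted p = 0.0513). This passed the threshold in 11 of 17 alternatives and not in 6. With a section left out the log2 fold change was 0.40 to 0.61. Of the 5 genes edgeR called none between old and middle (background 0.314%). An unadjusted p under 0.05 was found for 3 of them and for 1152 of all genes. DESeq2 called 2, and its count over all genes is not given here. The linear trend of Apoe was 0.04 per month, or 0.60 over the 15 months from young to old (edgeR adjusted p = 0.0381; 1 of the 5 genes, background 1.51%). This call was lost when young 1, young 2, old 1 or old 2 was left out (adjusted p up to 0.223) and with slide as a block (adjusted p = 0.302).

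The other carriers were also highest in both old sections but did not pass the test. Clu was at 1917 and 2003 CPM in young, 1829 and 1881 CPM in middle and 2440 and 2632 CPM in old white matter. The old sections did not overlap any other, while middle sections lay below young ones; the log2 fold change was 0.31 (SE 0.10, adjusted p = 0.14) against young and 0.43 (SE 0.10, adjusted p = 0.0725) against middle. Apod was at 2909 and 2742 CPM in young, 2893 and 2790 CPM in middle and 3300 and 3735 CPM in old white matter. Again both old sections were the highest (log2 fold change 0.26 against young, SE 0.11, adjusted p = 0.32), while the oligodendrocyte markers, with which Apod shares its territory, had 2 of 12 genes called lower and summed to 46094 and 47807 CPM in old against 51399 and 54957 CPM in young white matter.

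Neither transporter passed the test. Abca1 was at 39.1 and 37.0 CPM in young, 50.9 and 41.3 CPM in middle and 47.7 and 61.2 CPM in old white matter, counted from 126 to 225 UMIs per section. Old was above young, but middle 1 was above old 1 (log2 fold change of old against young 0.46, SE 0.15, adjusted p = 0.136). Abcg1 was at 96.3 and 136 CPM in young, 114 and 118 CPM in middle and 119 and 118 CPM in old white matter, so that the young sections spanned all others (log2 fold change -0.03, SE 0.12, adjusted p = 0.962). At 5000 UMIs drawn per spot, leaving out 6 to 30 shallower white matter spots per section, Abca1 was seen in 16.1% and 17.0% of young, 20.0% and 21.6% of middle and 22.4% and 24.7% of old white matter spots, against 4.67% to 6.68% of isocortex spots. The exact (Clopper-Pearson) 95% intervals, which cover counting error only, were 12.8% to 21.8% in young 2 and 19.7% to 30.3% in old 2, and overlapped. Before drawing, the shares in white matter were 36.8% and 32.3% in young and 40.1% and 49.5% in old sections, at median depths of 11630 and 9904 UMIs in young and 9568 and 11448 UMIs in old. For Abcg1 the share at equal depth was 39.4% to 51.9% in white matter, with young 2 the highest and old 1 the lowest, against 16.0% to 20.1% in isocortex.

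**Figure D2:**
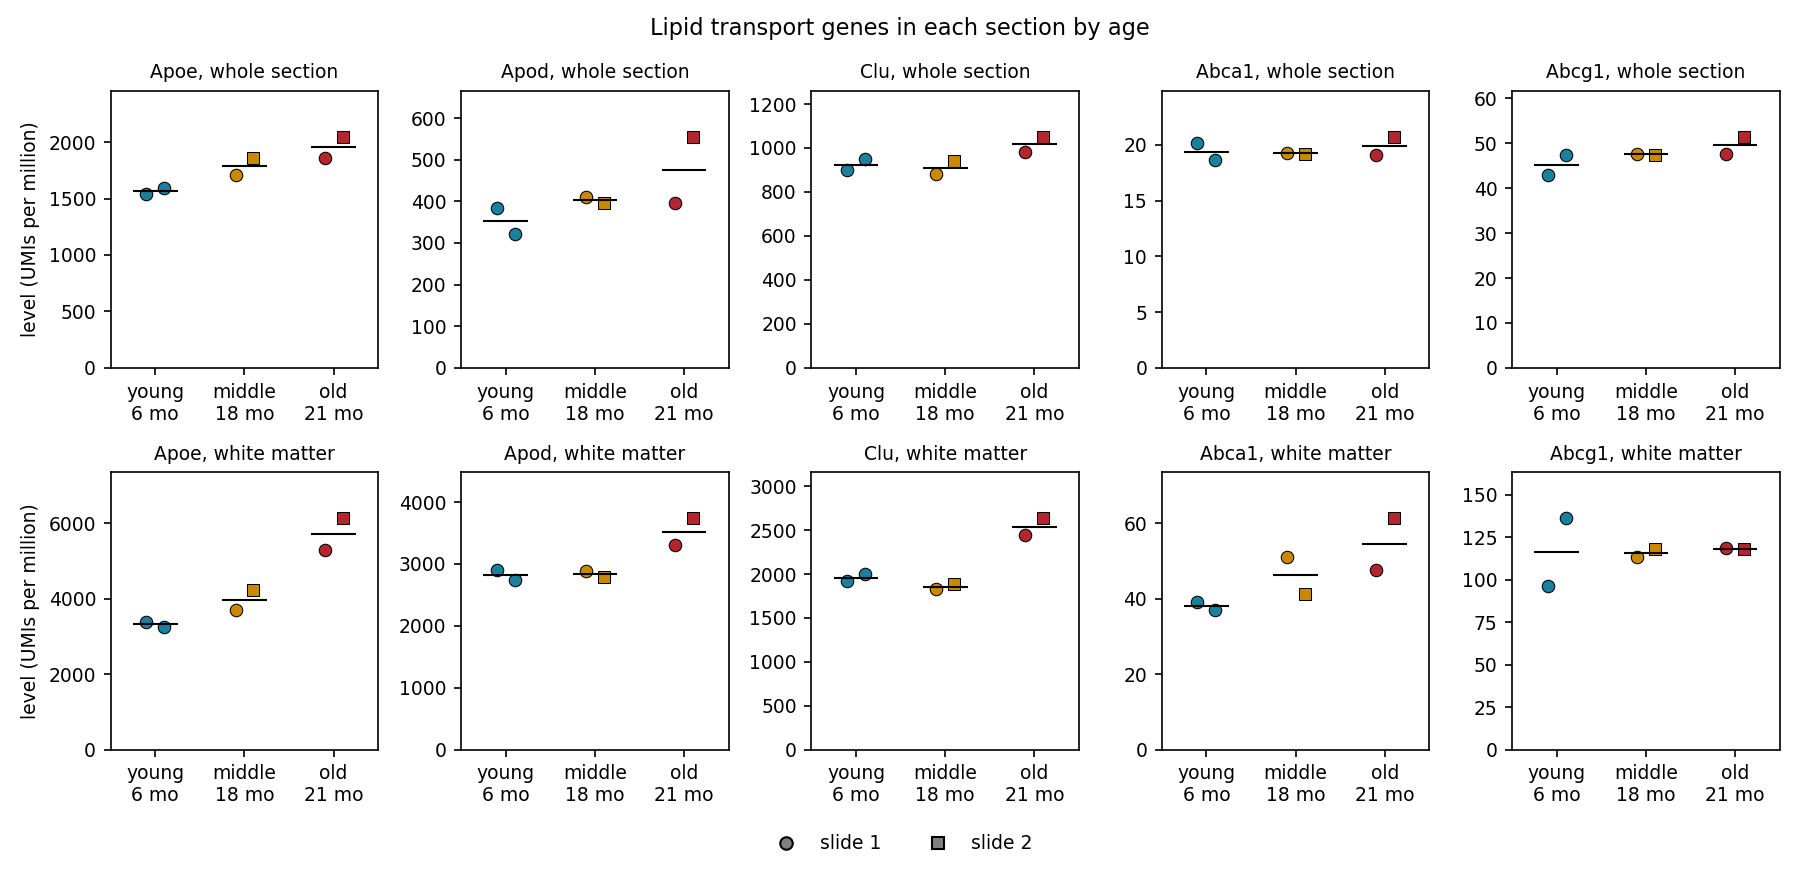
Level of the 5 genes (CPM) in whole sections (top) and white matter (bottom) by age, 1 point per section, with lines at the group means (n = 2) and shapes for the slide. Both old sections lie above all others for Apoe, Apod and Clu in white matter, while Abcg1 overlaps.

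Whether the age difference was larger in white matter than elsewhere was tested as an interaction. For Apoe the change between old and young was larger in white matter than in all other spots by 0.54 on the log2 scale (SE 0.082, edgeR adjusted p = 8.23e-06). It was the 1 gene of the 5 called, where 1.06% of 16813 genes were called, and it was called under each of the 13 alternatives tried, with adjusted p of at most 0.00496. The difference was 0.56 for Abca1 (SE 0.16, adjusted p = 0.0552) and 0.28 for Clu (SE 0.081, adjusted p = 0.076), both past the threshold under other cluster resolutions. It was -0.04 for Apod (SE 0.089, adjusted p = 0.957) and -0.10 for Abcg1 (SE 0.12, adjusted p = 0.886).

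In the 8 other regions, edgeR called none of the 5 genes between old and young (0 of 40 tests, 5 with an unadjusted p under 0.05, and 0 by DESeq2). The backgrounds were 0.221% in isocortex, 0.208% in meninges, 0.137% in striatum, 0.0459% in hypothalamus, 0.0364% in the amygdala and olfactory cortex cluster, 0.0289% in thalamus, 0.0262% in the choroid plexus and ventricle cluster and 0% in the hippocampal formation (517 of 13391 genes at an unadjusted p under 0.05, and 4 called by DESeq2). An unadjusted p under 0.05 was found for 1509 of 14922 genes in isocortex, 737 of 12962 in meninges, 1156 of 12411 in striatum and 961 of 13076 in hypothalamus. The counts were 922 of 13737 in the amygdala and olfactory cortex cluster, 762 of 13836 in thalamus and 532 of 11456 in the choroid plexus and ventricle cluster. For Apoe the log2 fold changes were 0.26 in striatum (adjusted p = 0.412), 0.25 in the hippocampal formation (adjusted p = 0.967), 0.24 in the choroid plexus and ventricle cluster (adjusted p = 0.993), 0.19 in the meninges (adjusted p = 0.917), 0.15 in isocortex (adjusted p = 0.464) and 0.11 in thalamus (adjusted p = 0.927). In hypothalamus (0.00089, adjusted p = 1.00) and in the amygdala cluster (0.02, adjusted p = 0.982) they lay near 0 and changed sign under other settings. In striatum Apod was at 440 and 504 CPM in young, 531 and 473 CPM in middle and 630 and 675 CPM in old sections. The old sections did not overlap the others (log2 fold change 0.40, SE 0.096, edgeR adjusted p = 0.167). With a section left out the log2 fold change was 0.35 to 0.45. Abca1 was lower in old sections in 7 of the 8 regions, with log2 fold changes from -0.25 to 0.29 and no adjusted p below 0.723. Clu was higher in 4 of the 8 (log2 fold changes from -0.09 to 0.18) and Abcg1 in 6 (from -0.06 to 0.29).

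**Figure D3:**
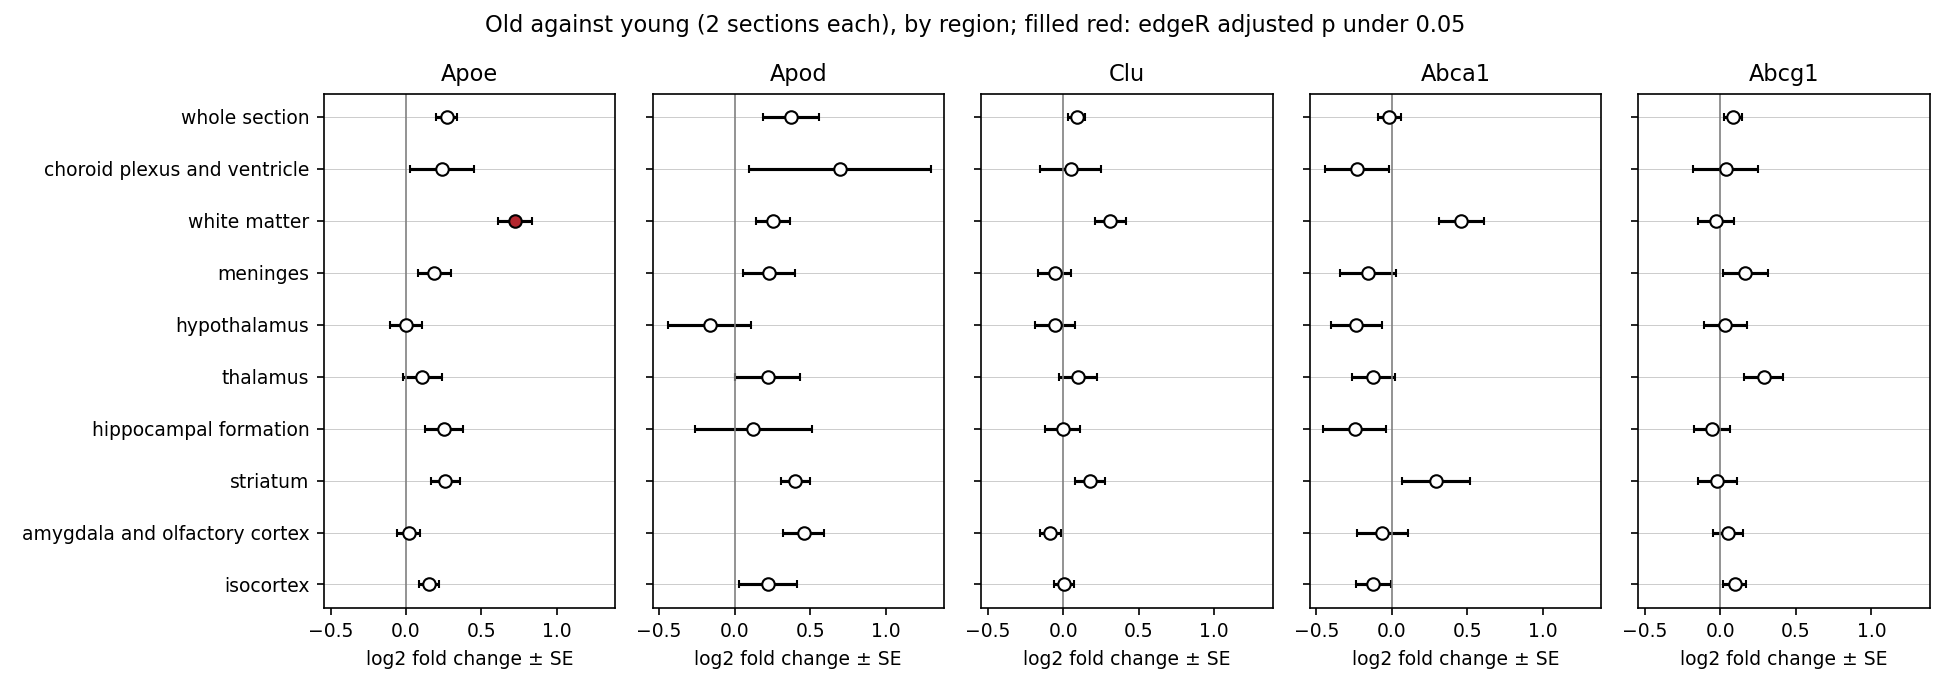
Log2 fold change of old against young (2 sections each, error bars SE from edgeR) for the 5 genes in whole sections and 9 regions, filled red where the adjusted p was under 0.05. Only Apoe in white matter (0.72) is filled, among these 50 values.

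The white matter spots of each section were then looked at one by one. The median Apoe level per spot was 2959 and 3107 CPM in young, 3697 and 4078 CPM in middle and 4924 and 5490 CPM in old sections. The 90th percentile was 4857 and 5053 CPM in young, 5457 and 6058 CPM in middle and 8965 and 10182 CPM in old sections, and the 10th percentile 1684 and 1771 CPM in young, 2360 and 2624 CPM in middle and 2986 and 3154 CPM in old sections. Each of the 3 percentiles was higher in both old sections than in any other. Apoe was counted in every white matter spot but 1.

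Markers of microglia and of reactive astrocytes moved with the Apoe result. The 14 microglia markers summed to 1349 and 1680 CPM in young, 2061 and 2300 CPM in middle and 3003 and 3655 CPM in old white matter, and 11 of the 14 were called higher in old than in young. Of 11 tested markers of disease-associated microglia, a lipid-handling state, 9 were called higher (1513 and 1598 CPM in young, 2462 and 3179 CPM in old). The 8 reactive astrocyte markers summed to 1204 and 1044 CPM in young, 1396 and 1474 CPM in middle and 2747 and 3547 CPM in old, with 5 called higher. The 14 general astrocyte markers summed to 3309 and 3489 CPM in young and 3772 and 3895 CPM in old, with 1 called higher. Both old sections were above both young ones. Choroid plexus epithelium markers summed to 748 to 3769 CPM with middle 2 the highest, and fibroblast markers to 65.1 to 149 CPM. The part of these marker lists in the Apoe result was not tested, and the spot values that follow are descriptions.

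The spots in which Apoe was high differed with age. Over the white matter spots of a section, the Pearson correlation of Apoe with the microglia markers was 0.027 and 0.019 in young, 0.293 and 0.372 in middle and 0.573 and 0.649 in old sections, over 249 to 319 spots each. With the general astrocyte markers it was 0.629 and 0.582 in young, 0.569 and 0.289 in middle and 0.206 and 0.182 in old sections. With the oligodendrocyte markers it was -0.333 and -0.206 in young and 0.242 and 0.15 in old, and with the reactive astrocyte markers 0.416 and 0.473 in young and 0.649 and 0.637 in old. The astrocyte correlation was thus lower and the microglia correlation higher in both old sections than in both young ones, while that with reactive astrocyte markers was positive at every age (0.549 and 0.592 in middle sections). These values are descriptions: spots of a section share a library, and the spots held a median of 13 and 14 microglia UMIs in young sections against 28 and 28 in middle and 26 and 36 in old ones, and the part of that difference in the correlations was not tested.

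**Figure D4:**
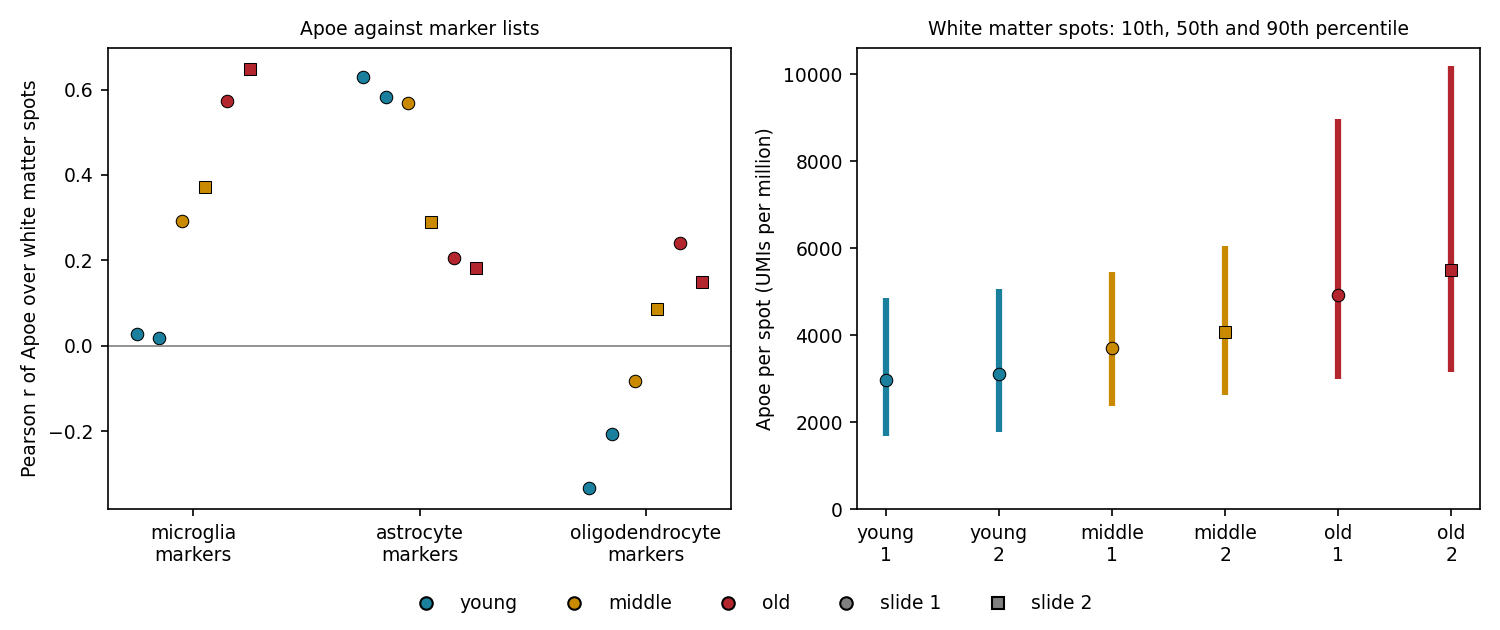
Left, Pearson correlation of Apoe with 3 marker lists over the white matter spots of each section; right, the 10th, 50th (point) and 90th percentile of Apoe per spot (CPM), coloured by age. The correlation with microglia markers is 0.019 and 0.027 in young and 0.573 and 0.649 in old sections, and the astrocyte correlation runs the other way.

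To show levels rather than correlations, the white matter spots of each section were split into 3 groups of equal size by their share of microglia UMIs, a split chosen after these data had been seen. In the low-microglia spots Apoe was at 3131 and 3144 CPM in young, 3605 and 3763 CPM in middle and 3869 and 4311 CPM in old sections. In the high-microglia spots it was at 3297 and 3179 CPM in young, 3954 and 5015 CPM in middle and 6966 and 8656 CPM in old sections. High-microglia spots thus had 1.05 and 1.01 times the Apoe of low-microglia spots in young, 1.10 and 1.33 times in middle and 1.80 and 2.01 times in old sections. In the high-microglia spots of old sections the reactive astrocyte markers were also 2.42 and 2.31 times, and the oligodendrocyte markers 1.21 and 1.32 times, those of the low-microglia spots. The neuron markers were 0.548 and 0.365 times those of the low-microglia spots in old and 0.558 and 0.621 times in young sections. The split by microglia thus also moved these lists. The difference between ages in these ratios was not tested.

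Spots were also grouped by fixed microglia levels. In spots with 4000 or more microglia CPM, a group with no upper bound, Apoe was at 2653 CPM (6 spots) and 3200 CPM (25 spots) in young, 4796 CPM (15 spots) and 6333 CPM (22 spots) in middle and 7483 CPM (82 spots) and 8595 CPM (102 spots) in old sections. In spots with 2000 to 4000 microglia CPM it was at 3511 and 3104 CPM in young (47 and 66 spots), 3762 and 4296 CPM in middle (100 and 105 spots) and 5265 and 5465 CPM in old sections (103 and 119 spots). In spots with 1000 to 2000 microglia CPM it was at 3667 and 3380 CPM in young (110 and 110 spots), 3493 and 3869 CPM in middle (94 and 94 spots) and 4034 and 4340 CPM in old sections (73 and 62 spots). Middle 1 lay below young 1 there. In spots with fewer than 1000 microglia CPM it was at 3125 and 3175 CPM in young (128 and 118 spots). Middle sections had 3730 and 3703 CPM there (42 and 28 spots), and old sections 3720 and 3628 CPM (41 and 18 spots). Old was thus not above middle in these spots. Fitted on the low-microglia spots alone, the log2 fold change of Apoe between old and young white matter was 0.30 (SE 0.14, edgeR adjusted p = 0.307), and without the high-microglia spots it was 0.44 (SE 0.12, adjusted p = 0.0648), so that either restriction ended the call. Given the ratios above, leaving out high-microglia spots must lower Apoe more in old than in young sections. These fits therefore restate the ratios, and the part of microglia in the result was not tested. The split was made within each section, and the low-microglia spots of old sections held 1115 and 1575 microglia CPM against 516 and 632 CPM in young ones.

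Apod also differed along this split in old sections. High-microglia spots had 1.76 and 1.71 times the Apod of low-microglia spots in old white matter, against 1.16 and 1.11 times in young and 1.13 and 1.35 times in middle white matter. In the low-microglia spots the log2 fold change of Apod between old and young was -0.22 (SE 0.14, adjusted p = 0.522), opposite in sign to that over all white matter. For Clu the ratio was 0.906 to 1.18 over the 6 sections, and old sections were the highest in each of the 3 groups of spots (2330 and 2356 CPM in the low-microglia spots of old, 1769 and 1962 CPM in those of young sections). By fixed levels, old sections were the highest in Clu at 1000 microglia CPM and above. In spots with fewer than 1000 microglia CPM, old 1 was the highest (2329 CPM, 41 spots) and old 2 the lowest section (1593 CPM, 18 spots). For Abca1 the ratio was 0.863 to 2.02, on few UMIs.

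**Figure D5:**
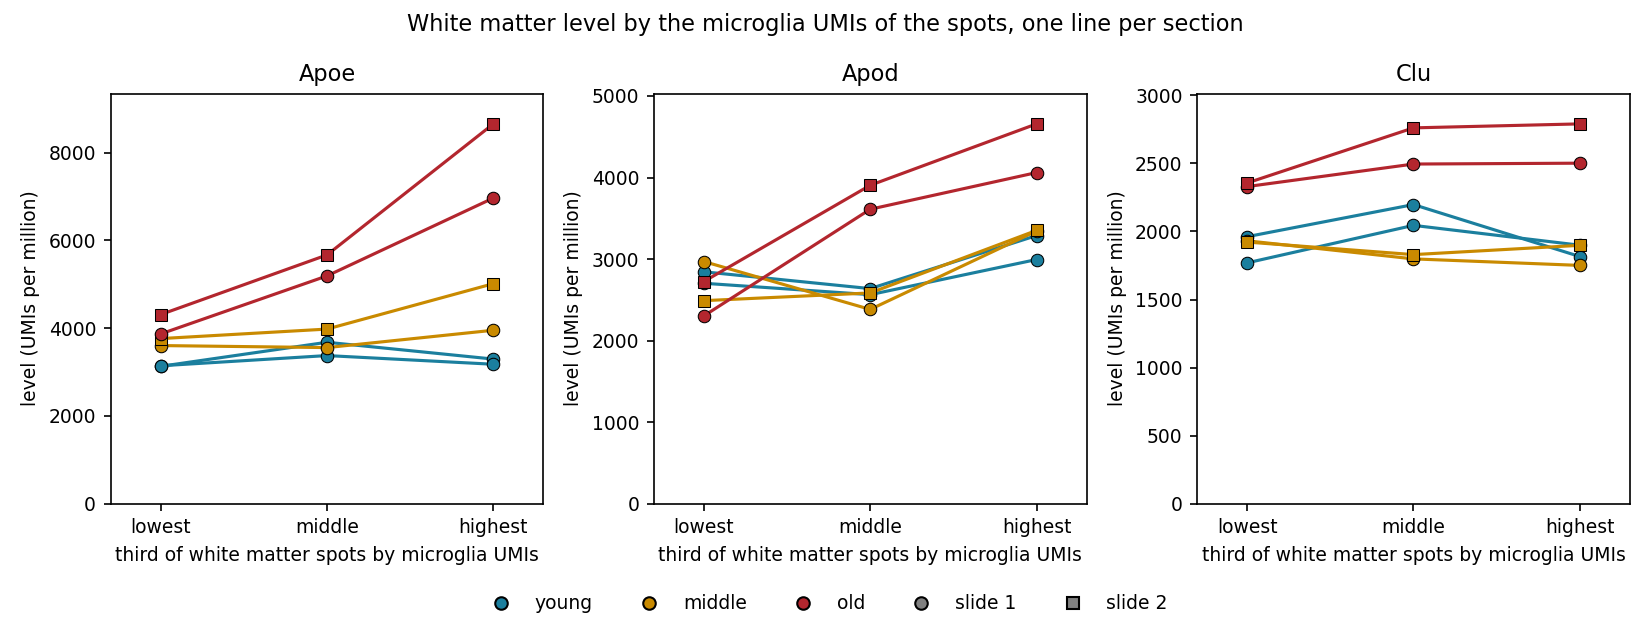
Level of Apoe, Apod and Clu (CPM) in the 3 equal groups of white matter spots by microglia UMIs, 1 line per section. The Apoe lines of young sections end near where they start (3131 and 3297 CPM in young 1) and those of old sections climb (4311 to 8656 CPM in old 2), while the Clu lines of old sections lie above the others throughout.

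Across all spots of a section, the genes with the pattern most like that of Apoe were Mt1 (mean Pearson r over the 6 sections 0.747), a metallothionein, Dbi (0.718), an acyl-CoA-binding protein, Cst3 (0.712), a secreted protease inhibitor, Clu (0.700) and Ptgds (0.672), a lipocalin and prostaglandin synthase. For Clu they were Apoe (0.700), Cst3 (0.645), Mt1 (0.645), Gfap (0.602), the astrocyte filament, and Dbi (0.600). Apod followed oligodendrocyte genes more closely than any other of the 5 followed a gene, with Trf (0.858), transferrin, Cnp (0.823), Mag (0.813) and Cldn11 (0.808), all of myelin or the cells that make it. The Abcg1 list was Mog (0.317), Gatm (0.315), Mal (0.314), Fth1 (0.312) and Sept4 (0.311), and no gene reached 0.3 for Abca1, whose closest was Apoe (0.248). Abca1 and Abcg1 have few UMIs per spot, which lowers every correlation they enter. Within white matter alone Apoe and Clu were still related (mean r 0.464, 0.396 to 0.567 over the sections), and Apoe and Apod less so (0.232, -0.031 to 0.416).

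Among the other genes of the pathway few differed in white matter between old and young. Of 18 lipid-carrying proteins 9 passed the filter on low counts, and 2 were called, Apoe higher and Ptgds lower. Ptgds was at 5004 and 3867 CPM in young, 2650 and 3029 CPM in middle and 2942 and 3447 CPM in old sections (log2 fold change -0.54, adjusted p = 0.0214), and this call was lost with DESeq2 (adjusted p = 0.338), when young 1, middle 1, old 1 or old 2 was left out (adjusted p up to 0.357), and in both fits restricted by microglia. Of 14 lipid export transporters 12 were tested, and 1 was called, Abca8a, a transporter of the same superfamily as Abca1. It was at 49.0 and 53.8 CPM in young, 74.6 and 71.2 CPM in middle and 99.1 and 99.3 CPM in old sections, in full order of age (log2 fold change 0.89, SE 0.11, adjusted p = 2.32e-05). The list medians on the log2 scale were 0.10 for the carriers and -0.05 for the transporters, against 0.0007 over all genes tested.

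Of 18 lipoprotein receptors and their regulators 14 were tested, and 1 was called, Trem2, the microglial receptor that binds lipids and lipoproteins. Trem2 was at 44.0 and 41.4 CPM in young, 79.0 and 98.3 CPM in middle and 130.0 and 159 CPM in old sections, without overlap between the 3 ages (log2 fold change 1.70, SE 0.13, adjusted p = 8.1e-09). It is also 1 of the 14 microglia markers, and it was the 1 pathway gene called in whole sections between old and young (log2 fold change 0.82, adjusted p = 0.0293), a call that slide as a block or leaving out young 1, middle 1, middle 2 or old 2 ended. In white matter Trem2 and Abca8a remained called under all 19 alternatives, the low-microglia spots included (log2 fold changes 1.42 and 0.70, edgeR adjusted p = 0.000991 and 0.0244). Trem2 UMIs were part of the share that sorted these spots, so its value there is not independent of the split. The low-microglia spots also held more microglia CPM in old sections (1115 and 1575) than in young ones (516 and 632). Of 8 tested nuclear receptors and co-regulators 3 were higher in old white matter, with a list median of -0.10 and no adjusted p below 0.169. Of 16 LXR target genes 2 were called, Apoe and Lpl, both higher; Abca1, Abcg1 and 12 others were not, and the list's median was 0.05. Of 15 lysosomal and storage lipid genes 2 were called, Lpl and Fabp3, both higher.

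Lpl, lipoprotein lipase, which frees fatty acids from lipoproteins, was counted in white matter with 17 and 25 UMIs in young, 44 and 37 UMIs in middle and 64 and 92 UMIs in old sections. Both old sections were the highest (log2 fold change 1.84, SE 0.25, adjusted p = 6.78e-05). It is also on the list of disease-associated microglia, and its call was lost in the low-microglia spots (log2 fold change 1.60, adjusted p = 0.338) and without the high-microglia spots (1.15, adjusted p = 0.217), while the fold stayed in the same direction. Fabp3, a fatty acid-binding protein, was at 29.4 and 30.3 CPM in young, 50.4 and 65.8 CPM in middle and 56.6 and 49.8 CPM in old white matter. Middle and old sections overlapped, and both were above young ones (log2 fold change of old against young 0.77, SE 0.15, adjusted p = 0.00318), but leaving out old 1 brought the adjusted p to 0.0519 and DESeq2 gave 0.0525.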

How the data were processed

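The authors deposited raw counts of UMIs for each gene and spot, made with Space Ranger version 1.3.1, per the file headers. The submitters' processing notes give version 3.1 instead, and the difference is not explained in the sources used here. The build is mm10 per the submitters' processing notes, and the annotation is not given in the sources used here. The other deposited content, spot barcodes and gene identifiers with symbols, only labels the counts. Images and spot positions were not used here.

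The members and gene lists were chosen with earlier results of these data known. Spots with at least 500 UMIs were scaled to 10000 UMIs and log transformed. The 124 genes of the member, pathway, microglia, reactive astrocyte and blood lists and the mitochondrially encoded genes were left out. Of the rest, 2000 variable genes, scaled by section, gave 30 principal components and, through 20 nearest neighbours, Leiden clusters (scanpy 1.11.5, resolution 0.8). To take a region's name, a cluster needed 3 or more of its markers in the 50 leading genes (1 or more in the first 10) and 2 times the count of the next region. Choroid plexus and ependyma, planned apart, shared 1 cluster and were joined after seeing it. Barcodes shared between sections come from the fixed grid.

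Counts were summed per section and region. All 6 sections entered edgeR 4.0.16 (TMM, filterByExpr, robust quasi-likelihood test; 3 residual degrees of freedom in the fit of groups), two-sided, with Benjamini-Hochberg adjustment over all genes tested and a threshold of 0.05. The interaction had section as a block. Named were the members in every comparison, from each pathway list and direction up to 4 called genes with a mean of at least 10 CPM, and the 5 genes most alike among those of at least 20 CPM, at a mean r of at least 0.3; 1 gene that met this last rule is not reported here. Levels are unscaled CPM unless called TMM-scaled. Alternatives were DESeq2 1.42.0, other filters, factors and blocks, other resolutions and definitions of white matter, thinned counts, and each section left out; the fits restricted by microglia were added after seeing the data. The fits were tested on simulated data. Replicate sections were not duplicates: their chi-square over degrees of freedom was 22.7 to 43.0.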

Additional observations from a re-analysis of the deposited data

Results flagged for a closer look

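The change of Apoe between old and young sections differed between white matter and all other spots by 0.54 on the log2 scale (interaction term, edgeR adjusted p = 8.23e-06, 2 sections per age), with both old sections above all others in white matter. No group had enough sections for a check of single sections that stand apart.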

How the results depend on the processing

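The direction of Apoe between old and young white matter held under 19 of 19 alternatives (log2 fold change 0.30 to 0.82), and it stayed past the threshold in 16; the exceptions were the fits without old 2, on low-microglia spots and without high-microglia spots. The number of the 5 genes called there was 0 on low-microglia spots and 0 without high-microglia spots, 2 with white matter defined by oligodendrocyte share, and 0 to 1 with a section left out. For old against middle white matter, where none was called, it was 2 with DESeq2, with no filter, with Leiden resolutions of 0.5 and 1.2 and by oligodendrocyte share, 1 with RLE factors, with at least 10 counts in every sum and on thinned counts, and 0 to 2 with a section left out. For the white matter trend it was 0 with slide as a block, at resolution 1.2 and by oligodendrocyte share, and 0 to 1 with a section left out. For the whole section it was 1 with DESeq2 (old against young, and the trend) and 1 with no filter (the trend). For the interaction it was 2 with no filter, 3 at resolutions 0.5 and 1.2 and by oligodendrocyte share, and 1 to 2 with a section left out. With no filter it was 1 in amygdala and olfactory cortex and 1 in striatum; with a section left out it was 0 to 1 there and in the meninges and 0 to 2 in the hippocampal formation. Calls over all genes moved with the setting too, as given below. For the interaction they were 178 in the main fit and 373 by oligodendrocyte share. For old against middle white matter they were 40 in the main fit and 162 with no filter. These counts of the 5 are therefore not results about these genes alone. The cause was not tested.

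Signs turned for values not called. Abca1 in whole sections was 0.0063 with equal numbers of spots, and -0.097 to 0.068 with a section left out. In white matter Abcg1 was 0.0102 at resolution 0.5, 0.012 at 1.2 and 0.0037 without high-microglia spots, and -0.24 to 0.21 with a section left out; on low-microglia spots Apod was -0.22 and Abca1 -0.041. In the interaction Apod was 0.047 by oligodendrocyte share and -0.20 to 0.12 with a section left out, and Abcg1 -0.30 to 0.11. Apoe with slide as a block was -0.042 in amygdala and olfactory cortex and -0.035 in hypothalamus, where it was -0.00041 with no filter; with a section left out it was -0.076 to 0.10 and -0.063 to 0.059 there, and -0.036 to 0.23 in thalamus.

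Replicate numbers were not taken to pair the sections. The correlation of deviations was 0.019 between young and middle, 0.135 between young and old and 0.241 between middle and old. Middle and old sections of the same number also shared a slide, so number and slide cannot be told apart for that pair. With a replicate block 1 of the 5 genes was called between old and middle white matter, Apoe in hypothalamus was -3.4e-05, and Apoe in white matter was 0.72 between old and young.

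Lowest and highest counts over all genes, beside the main count, were as follows. In white matter 281 calls between old and young became 105 (without old 2) and 483 (no filter), 375 between middle and young 10 (without middle 2) and 1360 (by oligodendrocyte share), 40 between old and middle 3 and 162, and 192 for the trend 43 and 522. In whole sections 29 became 6 (without old 2) and 194 (DESeq2), 12 between middle and young 1 and 70, 0 between old and middle 0 and 1, and 128 for the trend 23 and 341. The interaction's 178 became 66 and 373. Between old and young, 5 became 1 and 56 in amygdala and olfactory cortex, 3 became 2 and 22 in the choroid plexus cluster, 6 became 3 and 107 in hypothalamus, 33 became 14 and 230 in isocortex, 27 became 18 and 121 in meninges, 17 became 7 and 303 in striatum, 4 became 2 and 159 in thalamus, and 0 became 1532 in the hippocampal formation without young 2, which left the 45 spots of young 1 as the young group. Among regions, Apoe was highest in white matter rather than in the choroid plexus and ventricle cluster at resolution 0.5 (4280 and 3518 CPM), at 1.2 (4545 and 4300 CPM) and with TMM factors (4478 and 4216 CPM), and Abca1 at resolution 0.5 (46.6 and 44.5 CPM). Apod stayed highest in white matter, but at resolution 1.2 its second region was the meninges (1091 CPM, against 480 CPM at 0.8). The meninges cluster held 439 spots at resolution 1.2 and 1046 at 0.8. Depth limits Abca1 and Lpl, and 2 sections per age limit all tests.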
